A study of Mus musculus with 4 samples.

Results

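The 10 genes described here handle iron, heme and metals: Hmox1, Fth1, Ftl1, Slc40a1, Tfrc, Slc11a1, Trf, Cp, Mt1 and Mt2. They were taken by gene symbol from the deposited count tables, and all 10 were present among 32285 genes. The cells came from ascites, the fluid that collects in the abdomen, of female FVB mice 6 weeks after injection of Br-Luc cells, a mouse ovarian tumor line (p53-/-; Brca1-/-; Myc; Akt-myr). Mice had received a control siRNA (siCont-LNA) or an siRNA against Fxr1 (siFXR1-LNA), each modified with locked nucleic acid and carried by jetPEI. Each group had 2 libraries, every library pooled the ascites of several mice, and red cells had been lysed with ACK buffer. The comparison asked how the ascites cells differed between the treatments, and p-values measure only the spread between these 4 pools.

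Iron enters cells mostly bound to transferrin, through the transferrin receptor, and is stored in ferritin, a shell of heavy and light chains. Macrophages also take iron from dying red cells: heme oxygenase opens the heme ring, and ferroportin exports the freed iron. Iron regulatory proteins bind hairpins in some of these messages when iron is scarce, which blocks translation of ferritin and ferroportin and stabilizes the transferrin receptor message. Metallothioneins are small cysteine-rich proteins that bind zinc and copper, and the factor MTF1 drives them when free zinc rises.

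The 4 libraries held 17309 to 54665 barcodes and 78179267 to 113606837 UMIs (unique molecular identifiers, counted RNA molecules), and 132644 cells passed the filters on gene number and mitochondrial RNA. Hemoglobin RNA made up 30.5% and 43.0% of the UMIs in the siCont libraries and 10.2% in each siFXR1-LNA library, so every level here is given in counts scaled to a common total (CPM), with the 10 hemoglobin genes left out of gene counts and totals alike. Fxr1, the targeted gene, stood at 80.4 and 59.4 CPM in siCont replicates 1 and 2 and at 116 and 80.0 CPM in siFXR1-LNA replicates 1 and 2. These levels over all kept cells, whose types differed between libraries, were not lower in the libraries labelled siFXR1-LNA. The study reports lower Fxr1 RNA within epithelial cells of its siFXR1-LNA group, a narrower measure that is not given here. It also reports less FXR1 protein in transfected mouse tumor lines and in human ovarian tumors grown in nude mice given siFXR1-LNA. The groups below are named by their labels alone. The libraries stood apart in their cells too. Of 46480 cells in a shallow cluster that no marker list named (leading genes Sprr1a, Stbd1 and Lox), 40987 and 5343 lay in the siFXR1-LNA libraries, whereas 22106 and 15768 of 37996 erythrocytes lay in the siCont libraries. The study set aside a siFXR1-LNA sample with few reads and kept fewer cells than its stated limits left here, and the labels do not say which sample that was. Any 2 libraries shared 575 to 2846 cell barcodes, 2.29% to 7.84% of a library.

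Named cell types had their markers raised: 7 of 7 in macrophages of the larger of 2 clusters and 4 of 7 in the other, 5 of 6 in granulocytes, 8 of 8 in B cells, 8 of 8 and 5 of 8 in the T cell clusters, 7 of 8 in dendritic cells (DCs) and 4 of 5 in a cluster called mesothelial-like. The mesothelial-like cluster was led by long genes such as Kcnd2, Kirrel3 and Xkr4 that belong to no list used here, and no cluster had 3 raised markers of the epithelial list, so tumor cells were not told apart. Macrophages numbered 4356, 2108, 3820 and 3505 cells in siCont replicates 1 and 2 and siFXR1-LNA replicates 1 and 2, in which order values are given from here on. Granulocytes numbered 442, 903, 5039 and 4644 cells.

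Hairpins of the iron regulatory type are shown because iron regulatory proteins bind such hairpins in some of these messages. A search by letters cannot show which of the genes the proteins reach. The search took a bulged C, a stem of 5 base pairs (G-T pairs allowed) and the loop CAGTGN, where N is A, C or T. It was run on the untranslated regions of GENCODE vM21 (GRCm38), and capitals mark the loop. It found 1 hairpin in the 5′ untranslated region of each ferritin chain and of Slc40a1, and 4 in the 3′ untranslated region of Tfrc.
Fth1, chr19:9982732-9982760, + strand, 5′ untranslated region: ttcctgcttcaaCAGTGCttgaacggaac
Ftl1, chr7:45459779-45459807, - strand, 5′ untranslated region: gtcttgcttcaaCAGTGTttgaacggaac
Slc40a1, chr1:45925465-45925493, - strand, 5′ untranslated region: caacttcagctaCAGTGTtagctaagttt
Tfrc, chr16:32631219-32631247, + strand, 3′ untranslated region: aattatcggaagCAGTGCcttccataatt
Tfrc, chr16:32631598-32631626, + strand, 3′ untranslated region: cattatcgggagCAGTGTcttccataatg
Tfrc, chr16:32631663-32631691, + strand, 3′ untranslated region: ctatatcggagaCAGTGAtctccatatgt
Tfrc, chr16:32631710-32631738, + strand, 3′ untranslated region: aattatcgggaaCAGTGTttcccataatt
The same letters occurred in the 5′ untranslated region of 17 of 20811 genes (0.0817%) and in the 3′ untranslated region of 85 of 20859 genes (0.407%). A match is a run of letters and was not measured as a bound site.

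Promoters of the metallothionein genes are shown because Mt1 and Mt2 gave the widest differences between the groups in macrophages. Both genes lie on chromosome 8, Mt2 at chr8:94172664-94173568 and Mt1 at chr8:94179082-94180327, on the + strand. The 250 bases before each start are from RefSeq (GRCm38.p6, whose starts differ from those of GENCODE), and capitals mark TGCNCNC on either strand, the core of the element that MTF1 binds.
Mt2, chr8:94172368-94172617, + strand: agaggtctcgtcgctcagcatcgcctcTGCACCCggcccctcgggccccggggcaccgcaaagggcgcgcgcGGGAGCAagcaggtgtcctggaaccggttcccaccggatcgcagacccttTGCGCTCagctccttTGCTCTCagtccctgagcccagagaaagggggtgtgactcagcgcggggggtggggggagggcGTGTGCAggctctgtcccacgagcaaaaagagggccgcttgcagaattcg
Mt1, chr8:94178839-94179088, + strand: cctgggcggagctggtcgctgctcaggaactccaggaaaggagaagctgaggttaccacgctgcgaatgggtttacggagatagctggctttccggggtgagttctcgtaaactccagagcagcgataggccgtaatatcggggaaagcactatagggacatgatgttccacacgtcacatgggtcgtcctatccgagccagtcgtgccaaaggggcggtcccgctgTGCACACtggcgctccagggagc
The Mt2 window held 5 matches, 3 on its own strand and 2 on the other, and the Mt1 window held 1. These counts cover only the windows shown. Bases beyond them were not searched, so the genes are not ranked by their matches. Of 32851 RefSeq promoters of the same length, 44.4% held at least 1 match and 4.65% held at least 3. Promoter sequences were matched for 7 of the 10 genes.

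Across cell types, most of the genes for heme breakdown and iron storage were highest in macrophages (plot of levels by cell type). Of the 6 types compared here (macrophages, granulocytes, DCs, mesothelial-like cells, B cells and T cells), macrophages had the highest level of Hmox1, Fth1, Ftl1, Slc11a1 and Mt1 in every library, and of Mt2 in the siFXR1-LNA libraries only. That order depended on the types compared and on how cells were named. Over all named types and by group means, macrophages were highest for 5 genes in siCont and 6 in siFXR1-LNA. The 5 in siCont included Trf and not Mt1, whose mean there was 366 CPM in mast cells and 332 CPM in macrophages. When each cell was named from its own marker UMIs, macrophages were highest for 4 and 0. Granulocytes came next for Fth1, Ftl1 and Slc11a1 in every library, and in siFXR1-LNA replicate 2 their Slc11a1 level, 223 CPM, lay close to the 228 CPM of macrophages. Cp, a ferroxidase of blood plasma, was highest in mesothelial-like cells in every library, at 153, 189, 468 and 405 CPM. Slc40a1 was highest in granulocytes in the siCont libraries and in siFXR1-LNA replicate 2, and in mesothelial-like cells in siFXR1-LNA replicate 1 (49.1 CPM against 36.3 in granulocytes). For Tfrc, Trf and Slc40a1 the order of the types changed between libraries of 1 group, so their neighbours in the order did not differ beyond the spread. Cell types came from clusters of the same cells, and these levels are a description without a test.

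**Figure D1:**
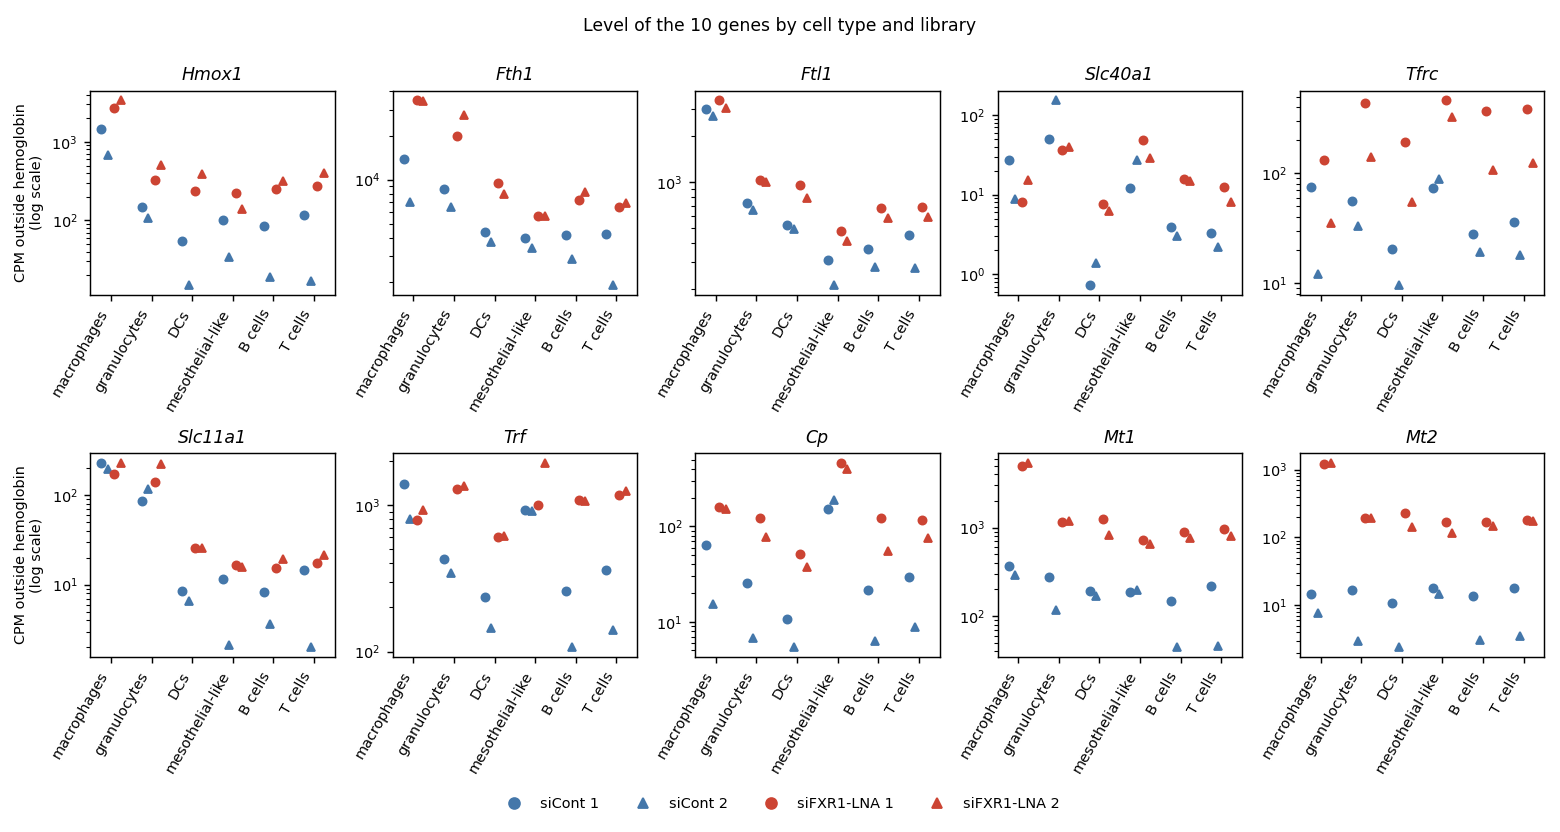
Level of each of the 10 genes (y axis, CPM outside hemoglobin, log scale) in 6 cell types (x axis), with 1 point for each of the 4 libraries (blue siCont, red siFXR1-LNA). Macrophages hold the highest points for Hmox1, Ftl1 and Mt1, mesothelial-like cells for Cp, and the red points of Mt2 lie above the blue points in every type.

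Levels in lymphocytes are given for comparison, since free RNA adds UMIs to every cell type. They are not a measure of free RNA alone, because many cells, lymphocytes among them, make ferritin and the transferrin receptor. T cells and B cells had like levels of all 10 genes, with the B cell level between 0.570 and 1.84 times the T cell level of the same library, at median depths of 1581.5 to 2250.5 UMIs a cell outside hemoglobin. Hmox1 in T cells stood at 116, 16.9, 273 and 399 CPM and Mt1 at 220, 45.5, 961 and 801 CPM. All 10 genes were higher in the T cells of both siFXR1-LNA libraries than in those of either siCont library. The unnamed cluster had still higher levels of Trf in the siFXR1-LNA libraries, 1858 and 2965 CPM against 1175 and 1254 CPM in T cells, and of Tfrc, 632 and 253 CPM against 387 and 124 CPM. T cells were held by different clusters in the groups. Cluster T0 (Cd4, Trbc2) had 1243, 748, 2 and 15 cells. Cluster T1 (Bcl11b, Lef1) had 2, 9, 619 and 472 cells. The part that free RNA or these clusters played in the differences below was not tested.

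Hmox1, the inducible heme oxygenase (chr8:75093621-75100589, + strand), was higher in macrophages of the libraries labelled siFXR1-LNA. Its levels were 1467 and 686 CPM in siCont and 2694.5 and 3370 CPM in siFXR1-LNA, without overlap. The log2 fold change was 1.74 ± 0.40 (SE, n = 2 libraries a group, edgeR adjusted p = 0.0433). Macrophage levels were 12.7, 40.6, 9.87 and 8.45 times those of T cells. Hmox1 was detected in 41.8%, 27.2%, 61.8% and 68.1% of macrophages after each cell was thinned to 1000 UMIs, against 10.2%, 1.85%, 24.0% and 28.5% of T cells, and in 69.1%, 66.0%, 86.8% and 93.3% of macrophages unthinned. In granulocytes Hmox1 stood at 146, 108, 329 and 501 CPM, between 1.20 and 6.39 times the T cell level, and did not pass (1.82 ± 0.43, edgeR adjusted p = 0.0582). The macrophage call was lost without siFXR1-LNA replicate 1 (edgeR adjusted p = 0.151), without siFXR1-LNA replicate 2 (0.159) without TMM scaling (0.0534) and with the 10 genes kept among the variable genes of the clustering (0.0525).

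In macrophages 4 of the 10 genes passed, all higher in the libraries labelled siFXR1-LNA, where 8.95% of 14184 genes tested were called higher and 10.3% lower (edgeR, adjusted p under 0.05). Without TMM scaling 947 genes were called higher and 3119 lower, against 1270 and 1464 with it, and 3 of the 10 genes passed. The 4 genes were Hmox1, Fth1, Mt1 and Mt2, and the median log2 fold change of the 10 genes was 1.46 against -0.02 over all genes tested. The macrophage class was held by different clusters in the groups. Cluster M0 (leading genes Cacna1d, Nos2 and Arg1) made up 0%, 0.0474%, 52.2% and 51.0% of macrophages. Cluster M1 (Lyve1, Folr2) made up 56.3%, 6.31%, 0.262% and 1.65%, and cluster M4 (Ace, Cd300e) 24.3%, 34.2%, 0% and 0.0571%.

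**Figure D2:**
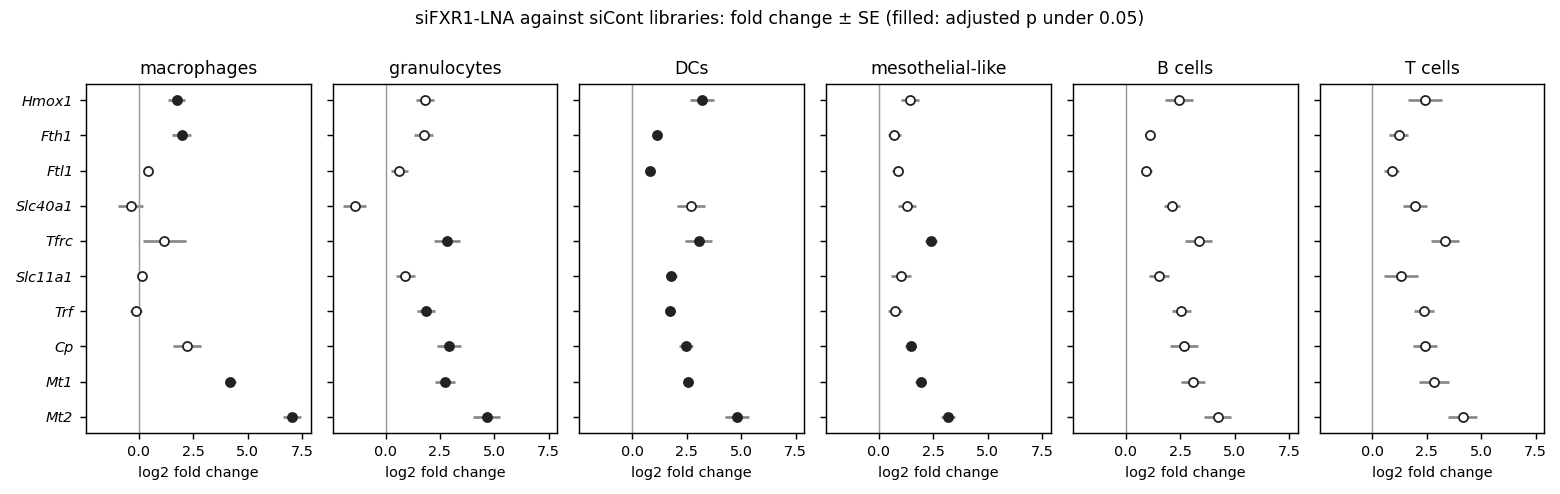
Log2 fold change of each gene, siFXR1-LNA against siCont libraries (x axis), ± SE in 6 cell types, with filled points where the edgeR adjusted p was under 0.05 (n = 2 libraries a group). Filled points number 4 in macrophages, 5 in granulocytes, 4 in mesothelial-like cells, 9 in DCs and 0 in B cells and in T cells, and Mt2 lies farthest to the right in every type.

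Of the storage genes, Fth1 differed between the groups in macrophages and Ftl1 was close to level. Fth1 encodes the ferritin heavy chain, which oxidizes iron as it enters the shell (chr19:9980598-9985098, + strand). Macrophages held 13856 and 7018 CPM of it in siCont and 34739 and 34172 CPM in siFXR1-LNA. The groups did not overlap, and the log2 fold change was 1.97 ± 0.43 (edgeR adjusted p = 0.0389). These levels were 3.27, 3.70, 5.38 and 4.93 times those of T cells. Without siCont replicate 2 the adjusted p was 0.0501, without siFXR1-LNA replicate 1 it was 0.172 and without siFXR1-LNA replicate 2 it was 0.139. Ftl1, the light chain, which seeds the iron core (chr7:45457944-45459884, - strand), stood at 2980, 2699, 3401 and 3055 CPM in macrophages. Its siFXR1-LNA libraries were the 2 highest, but the log2 fold change of 0.43 ± 0.19 did not pass (edgeR adjusted p = 0.179). Reads of Ftl1 and of its near-identical copy Ftl1-ps1 may have been divided between the copies by the authors' counting. In granulocytes Fth1 stood at 8568, 6529, 19954 and 27813 CPM, without overlap, and did not pass either (1.76 ± 0.44, edgeR adjusted p = 0.0650).

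The export genes did not pass in macrophages. Slc40a1, which encodes ferroportin (chr1:45908068-45926523, - strand), was sparse there, at 26.9, 8.83, 8.01 and 15.2 CPM, with groups that overlapped (log2 fold change -0.37 ± 0.58, edgeR adjusted p = 0.679). In siFXR1-LNA replicate 1 the macrophage level was 0.634 times that of T cells. Granulocytes held more, 49.3, 152, 36.3 and 39.5 CPM, with siCont replicate 2 far above the rest and no overlap between the groups, and the difference did not pass (-1.42 ± 0.54, edgeR adjusted p = 0.198). It rested on the siCont libraries: without siCont replicate 1 the log2 fold change was -2.03 and passed as lower (edgeR adjusted p = 1.06e-06), and without siCont replicate 2 it was -0.13 (0.925). Granulocyte levels of Slc40a1 were 14.9 and 68.6 times those of T cells in siCont and 2.87 and 4.92 times in siFXR1-LNA. Cp, which encodes ceruloplasmin and oxidizes exported iron (chr3:19957054-20009145, + strand), stood at 63.3, 15.3, 159 and 152 CPM in macrophages (2.23 ± 0.64, edgeR adjusted p = 0.0715). In mesothelial-like cells Cp was higher in the siFXR1-LNA libraries without overlap (1.45 ± 0.26, edgeR adjusted p = 0.00939), at 4.04 to 21.3 times the T cell level.

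Among the uptake genes, none passed in macrophages. Tfrc, the transferrin receptor (chr16:32608920-32632794, + strand), stood at 75.7, 12.1, 132 and 35.5 CPM in macrophages, with overlap between the groups (1.18 ± 0.98, edgeR adjusted p = 0.431). In 3 libraries that was below the T cell level, at 0.662, 0.341 and 0.288 times it. Mesothelial-like cells held 74.2, 89.4, 463 and 330 CPM of Tfrc, without overlap (2.39 ± 0.29, edgeR adjusted p = 0.00148), at 1.20 to 4.91 times the T cell level. Trf, transferrin itself (chr9:103204001-103230444, - strand), stood at 1398, 804, 788 and 921 CPM in macrophages (-0.12 ± 0.29, edgeR adjusted p = 0.793). Macrophages had 3.90 and 5.73 times the Trf of T cells in siCont and 0.671 and 0.735 times in siFXR1-LNA. In the siFXR1-LNA libraries the macrophage sum of Trf was thus below the T cell level. Clusters M2 and M3, described below, were above that level. Slc11a1, a metal transporter of the phagosome membrane (chr1:74375195-74386062, + strand), stood at 227, 193, 170 and 228 CPM in macrophages. Its groups overlapped (0.17 ± 0.19, edgeR adjusted p = 0.557, and -0.076 without TMM scaling), and its levels were 9.87 to 96.7 times those of T cells.

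Of the 10 genes, the metallothioneins differed most in macrophages. Mt2 rose from 14.8 and 7.59 CPM in macrophages of the siCont libraries to 1215 and 1269 CPM in those labelled siFXR1-LNA (311 and 122 UMIs against 25796 and 38591). The log2 fold change was 7.03 ± 0.39 (edgeR adjusted p = 0.00470), and the groups did not overlap. In the siCont libraries the macrophage level of Mt2 was 0.816 and 2.13 times that of T cells, and in the siFXR1-LNA libraries it was 6.66 and 7.36 times. Mt1 stood at 373, 291, 4917 and 5421 CPM, without overlap (4.20 ± 0.24, edgeR adjusted p = 0.00474), at 1.69, 6.39, 5.12 and 6.77 times the T cell level. After thinning, Mt2 was detected in 1.43%, 0.583%, 39.7% and 37.3% of macrophages and in 2.39%, 0.371%, 15.9% and 14.97% of T cells, and unthinned in 5.99%, 3.94%, 65.3% and 65.3% of macrophages. Mt1 was detected in 27.6%, 21.8%, 79.2% and 72.5% of thinned macrophages. Both metallothionein calls held without each library in turn, with adjusted p of at most 0.0460 in edgeR. They were lost, with those of Hmox1 and Fth1, when each cell was named from its own marker UMIs instead of its cluster (edgeR adjusted p = 0.0624 for Mt1 and Mt2, log2 fold changes 3.79 and 6.43). In that setting 1 of 15614 genes passed.

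Shares of macrophages with a UMI, thinned to 1000 UMIs, did not overlap between the groups for 5 of the 10 genes, Hmox1, Fth1, Cp, Mt1 and Mt2, all higher in siFXR1-LNA. Among all genes compared this way, 20.9% were higher without overlap and 46.8% lower. In granulocytes all 10 genes were without overlap, 9 higher and Slc40a1 lower, where 21.7% of genes were higher and 24.5% lower without overlap. Granulocyte shares of Slc40a1 were 5.12%, 13.2%, 3.93% and 3.70%, against 0.356%, 0.212%, 1.39% and 0.713% of T cells. With 2 libraries a group the smallest p an exact permutation test can give is 0.33, two-sided, so none of these shares could pass. Thinning left out 90, 51, 24 and 13 macrophages and 110, 366, 127 and 107 granulocytes with fewer UMIs.

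**Figure D3:**
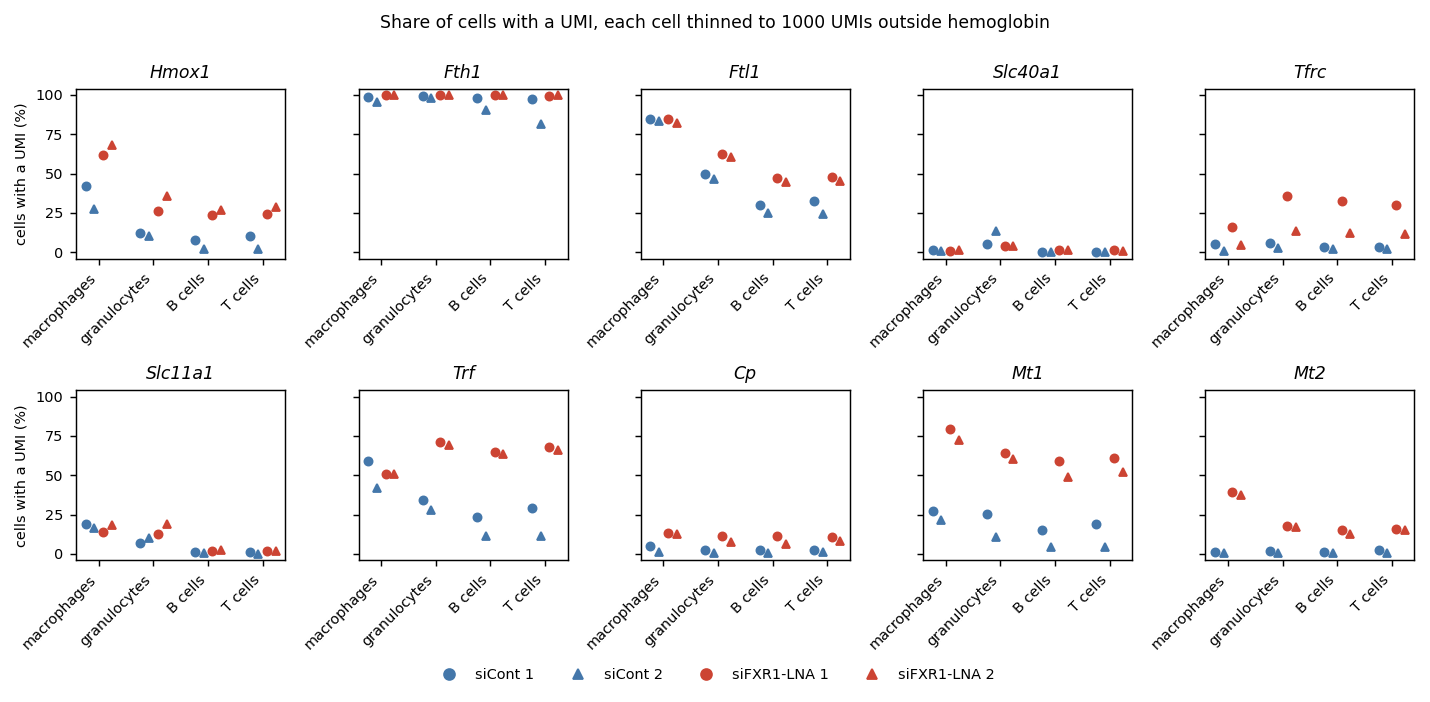
Share of cells (y axis, percent) with at least 1 UMI of each gene in macrophages, granulocytes, B cells and T cells (x axis), each cell thinned to 1000 UMIs outside hemoglobin, with 1 point for each library. Red points (siFXR1-LNA) of Mt1 and Mt2 lie above the blue points (siCont) in all 4 types, and those of Mt2 are highest in macrophages at 39.7% and 37.3%.

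Within macrophages, the metallothioneins and Hmox1 peaked in cluster M0, which the siCont libraries all but lacked. In M0 of the siFXR1-LNA libraries, Mt2 stood at 1695 and 1913 CPM, Mt1 at 6668 and 7995, Fth1 at 44860 and 44438, and Hmox1 at 3408 and 4265. M0 had little Trf, 428 and 373 CPM. In cluster M2 (leading genes Alox15 and Prg4), which all 4 libraries held, Mt2 stood at 20.4, 9.37, 160 and 70.7 CPM and Hmox1 at 1742, 1134, 1605 and 2276 CPM. In cluster M3 (Retnla, Ear2), also held by all 4, Mt2 stood at 22.5, 2.62, 159 and 87.3 CPM and Hmox1 at 483, 254, 1002 and 679 CPM. Mt2 was thus higher without overlap within M2 and within M3, at levels below those of T cells in the siFXR1-LNA libraries (182 and 172 CPM). Hmox1 overlapped in M2 and did not in M3. Trf in M2 stood at 1852, 1399, 2282 and 2469 CPM, and in M3 at 528, 629, 1467 and 1323 CPM, without overlap in either. All 4 libraries also held M5 (Cacna1d, Nos2), with 105, 43, 645 and 423 cells, and M6 (Retnla, Pclaf), with 251, 186, 26 and 52. Neither was tested alone, and their levels are in the plot of macrophage clusters.

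Tested alone, an alternative chosen after seeing the data, M2 and M3 gave 0 of the 10 genes at an adjusted p under 0.05 in edgeR, and 0 of all genes, with 605 of 11075 and 824 of 9813 genes at an unadjusted p under 0.05. The log2 fold change of Mt2 was 3.25 ± 0.57 in M2 (edgeR adjusted p = 0.726) and 3.49 ± 0.72 in M3 (edgeR adjusted p = 0.309). For Hmox1 it was 0.45 ± 0.33 in M2 (edgeR adjusted p = 0.922) and 1.25 ± 0.35 in M3 (edgeR adjusted p = 0.446). For Fth1 it was 0.48 ± 0.47 in M2 (edgeR adjusted p = 0.945) and 0.83 ± 0.27 in M3 (edgeR adjusted p = 0.501). The values for the whole class were 7.03 for Mt2, 1.74 for Hmox1 and 1.97 for Fth1. Changes within clusters and a change in which clusters make up the class cannot be told apart for M0, M1 and M4, which are nearly lacking in 1 of the groups or in some of its libraries.

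**Figure D4:**
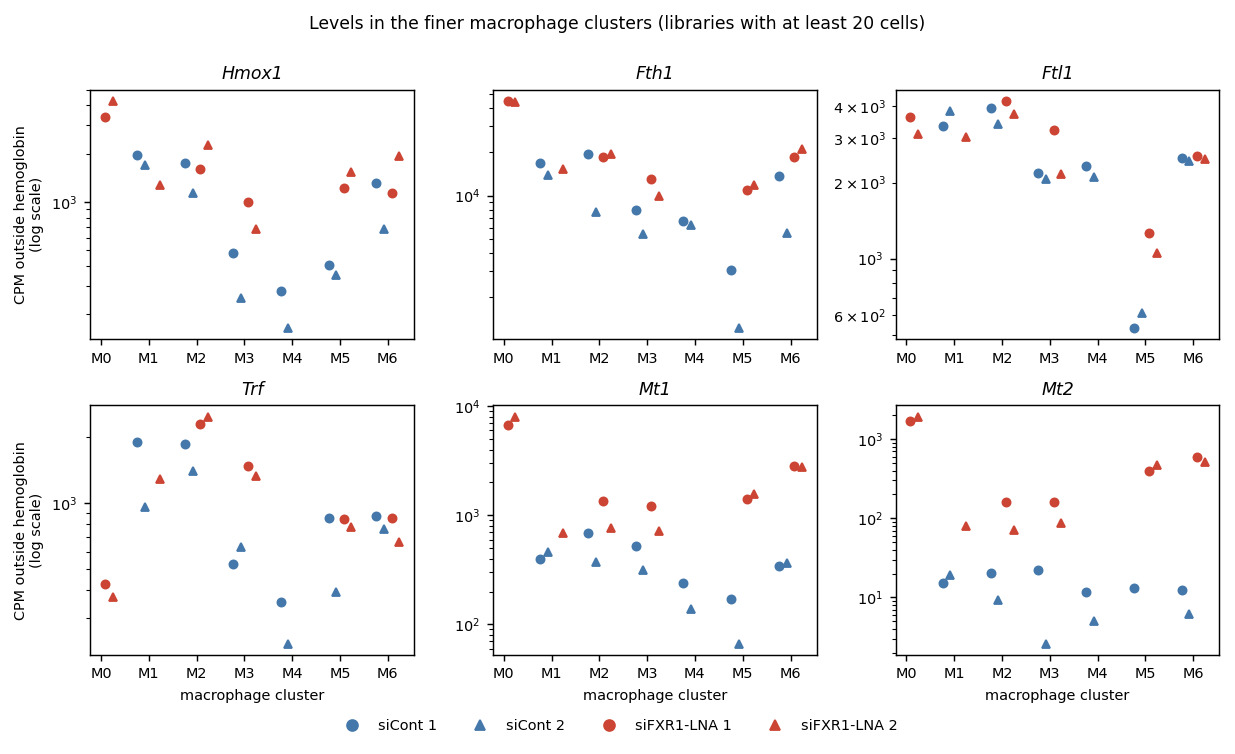
Level of 6 genes (y axis, CPM outside hemoglobin, log scale) in macrophage clusters M0 to M6 (x axis), with 1 point for each library that held at least 20 cells of the cluster. M0 has points of the siFXR1-LNA libraries only (red), which are the highest of all for Hmox1, Fth1, Mt1 and Mt2 and among the lowest for Trf.

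In granulocytes, short-lived phagocytes of the blood, 5 of the 10 genes passed, all higher in the siFXR1-LNA libraries, where 0.764% of 12169 genes were called higher and 1.73% lower (edgeR). Mt2 stood at 17.0, 3.01, 194 and 196 CPM, resting on 10 and 4 UMIs in the siCont libraries (4.64 ± 0.63, edgeR adjusted p = 0.00721). Cp stood at 25.5, 6.78, 123 and 78.1 CPM (2.91 ± 0.55, edgeR adjusted p = 0.0301). Both lay near the T cell level of the same library, at 0.849 to 1.13 times for Mt2 and 0.764 to 1.06 times for Cp. Mt1 (2.73 ± 0.47, edgeR adjusted p = 0.0184), Tfrc (2.83 ± 0.58, 0.0379) and Trf (1.86 ± 0.40, 0.0439) also passed, with siFXR1-LNA levels of 1.21 and 1.48, 1.13 and 1.15, and 1.09 and 1.07 times those of T cells. The call of Trf was lost without siCont replicate 2 and without either siFXR1-LNA library, and that of Tfrc without siFXR1-LNA replicate 1. Different clusters held this class as well: in G2 (Cxcr2, Csf3r), with 427, 853, 20 and 260 cells, Mt1 and Mt2 alone passed (chosen after seeing the data). In G2, 12 of 6767 genes tested were called higher and 21 lower.

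In mesothelial-like cells, 4 of the 10 genes were higher in the siFXR1-LNA libraries, Cp, Tfrc, Mt1 and Mt2, where 2.93% of 13111 genes were called higher and 4.95% lower (edgeR). Mt2 stood at 18.2, 14.7, 168 and 115 CPM (3.16 ± 0.30, edgeR adjusted p = 0.000547) and Mt1 at 189, 197, 720 and 654 CPM (1.93 ± 0.25, edgeR adjusted p = 0.00205). In the siFXR1-LNA libraries both were below the T cell level, at 0.920 and 0.669 times for Mt2 and 0.749 and 0.817 times for Mt1. Without siCont replicate 1 the call of Cp was lost.

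In DCs, 9 of the 10 genes were higher, all but Slc40a1, where 2.20% of 11388 genes were called higher and 1.83% lower (edgeR). Log2 fold changes ran from 0.80 for Ftl1 to 4.82 for Mt2. In the siFXR1-LNA libraries DC levels of Hmox1, Slc40a1, Tfrc, Trf and Cp were below those of T cells. The DC class was also held by different clusters in the groups: D1 (Cd209a, Mgl2) had 500, 302, 1 and 0 cells. Without siFXR1-LNA replicate 1, fewer of these genes passed, and fewer of all genes were called higher too. In B cells and T cells none of the 10 passed in edgeR, where 0.129% and 0.227% of genes were called higher and 0.0322% and 0.168% lower. All 10 had positive log2 fold changes in both, with medians of 2.49 in B cells and 2.38 in T cells, and 10 and 9 had an unadjusted p under 0.05. In B cells DESeq2 called 9 of them higher, beside 285 of 12424 genes, and edgeR with the replicate block called 9, beside 491 genes. In T cells DESeq2 called 5, beside 180 of 11871 genes, and the replicate block gave 5, beside 163 genes. Without siCont replicate 1 edgeR called 9 in B cells and 8 in T cells (beside 637 and 487 genes), and without siCont replicate 2 it called 6 and 1 (beside 134 and 11 genes).

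The size of the change was compared between macrophages and each other type in the same libraries. Mt2 changed more in macrophages than in every other type, by 2.22 to 3.85 on the log2 scale (edgeR interaction, adjusted p from 0.00198 to 0.0139). Trf changed less in macrophages than in granulocytes, B cells, T cells and DCs, by -2.72 to -1.79 (adjusted p from 4.40e-05 to 0.00594, edgeR). Over all genes, the change differed for 4.86% against granulocytes, 0.911% against mesothelial-like cells, 3.11% against B cells, 1.44% against T cells and 6.72% against DCs. The Mt2 difference lost its call against granulocytes without siCont replicate 1 (1.52, edgeR adjusted p = 0.360), siFXR1-LNA replicate 1 (0.269) or siFXR1-LNA replicate 2 (0.188), and against DCs without siCont replicate 1 (1.33, 0.115). That of Trf lost its call against granulocytes without siFXR1-LNA replicate 1 (0.239) or siFXR1-LNA replicate 2 (0.115).

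Hemoglobin made up 8.20%, 5.79%, 2.99% and 1.24% of macrophage UMIs, 24.8%, 24.5%, 4.55% and 1.68% of granulocyte UMIs and 22.2%, 18.8%, 7.71% and 3.90% of T cell UMIs. It was lower in both siFXR1-LNA libraries than in either siCont library in each of the 6 types. Alas2, the red cell enzyme that starts heme synthesis, moved with it in granulocytes, from 1524 and 1325 CPM to 199 and 68.4 CPM. With cells over 10% hemoglobin left out, the same 4 genes passed in macrophages, with log2 fold changes of 1.64 for Hmox1, 1.91 for Fth1, 4.19 for Mt1 and 7.01 for Mt2. The median log2 fold change of all genes in macrophages was -0.02 with TMM scaling and -0.26 without it.

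**Figure D5:**
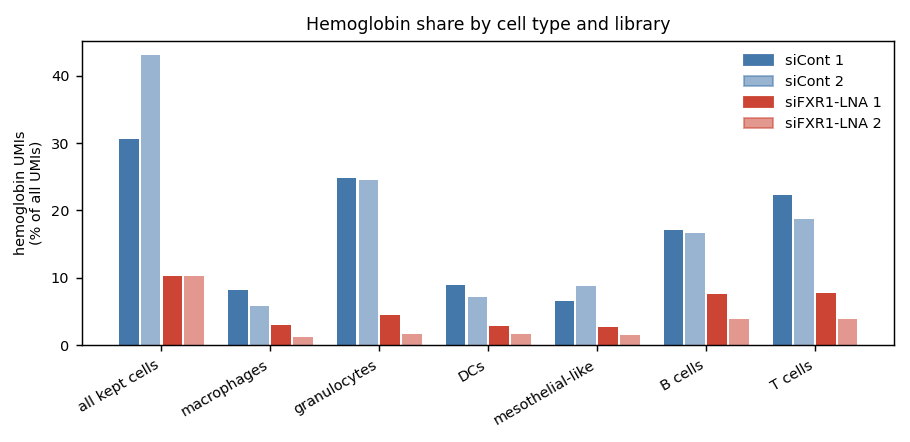
Hemoglobin UMIs as a percent of all UMIs (y axis) in all kept cells and in 6 cell types (x axis), with 1 bar for each library. The siFXR1-LNA bars (red) are shorter than the siCont bars (blue) in every type, as in granulocytes with 4.55% and 1.68% against 24.8% and 24.5%.

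A wider list of 59 other genes of iron, heme and zinc was read in the same tests. In macrophages 50 were tested, 7 were higher and 6 lower, with a median log2 fold change of -0.01. These counts lie near the 8.95% higher and 10.3% lower among all genes tested, so they are not a result about the list. The 5 largest differences follow. Lcn2, which binds iron-carrying siderophores, stood at 3.42, 14.5, 2756 and 2818 CPM (8.53 ± 0.85, edgeR adjusted p = 0.00860). Hp, haptoglobin, which binds free hemoglobin, stood at 51.8, 105, 1565 and 1915 CPM (4.71 ± 0.44, edgeR adjusted p = 0.00777). Spic, a factor of macrophages that recycle red cells, stood at 2.47, 1.31, 8.57 and 10.6 CPM (2.57 ± 0.35, edgeR adjusted p = 0.0147). Fbxl5, which marks an iron regulatory protein for destruction when iron is ample, stood at 105, 216, 765 and 680 CPM (2.40 ± 0.39, edgeR adjusted p = 0.0203). Alas2 was lower, at 392, 270, 109 and 50.1 CPM (-1.81 ± 0.41, edgeR adjusted p = 0.0430). None of these 5 overlapped between the groups. In T cells Lcn2 also passed, at 4.12, 10.4, 466 and 524 CPM (6.11 ± 0.52, edgeR adjusted p = 0.0143), as did Hp.

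The other types differed widely in how many genes of any kind were called, so counts are not compared between types. In granulocytes 2 of 49 passed, both lower: Alas2 (-3.33 ± 0.56, edgeR adjusted p = 0.0161) and Steap4, a metalloreductase, which stood at 44.2, 128, 10.1 and 17.0 CPM (-2.68 ± 0.57, edgeR adjusted p = 0.0423). In mesothelial-like cells 3 of 49 were higher, Lcn2 (5.35 ± 0.33), Hp (1.99 ± 0.28) and the zinc importer Slc39a6 (1.53 ± 0.28), and 2 were lower, Alas2 (-2.00 ± 0.29) and Alad (-0.93 ± 0.24), an enzyme of heme synthesis, with edgeR adjusted p of at most 0.0433. In B cells 1 of 47 passed, Lcn2 (6.87 ± 0.62, edgeR adjusted p = 0.0302). In DCs 4 of 46 were higher, Lcn2 (5.93 ± 0.66), Hp (4.11 ± 0.37), Fbxl5 (1.16 ± 0.18) and Lrp1 (1.08 ± 0.21), a receptor for the heme carrier hemopexin, and Alas2 was lower (-2.24 ± 0.29), with edgeR adjusted p of at most 0.0429. The median log2 fold change of the listed genes lay between -0.08 and 0.15 in these types and in T cells.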

How the data were processed

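Single-cell 3′ RNA libraries of mouse ascites (2 siCont, 2 siFXR1-LNA) were analysed from the UMI counts per gene and barcode that the authors deposited. Per the submitters' processing notes, the counts came from Cell Ranger 7.0.0 and mm10. The study's methods and the labels name different kit and software versions. The study's limits for cells were applied (no fewer than 100 genes, no more than 4800, and mitochondrial RNA up to 15%). Counts were scaled to 10000 per cell and clustered in Seurat 5.3.0 (R 4.3.3; 2000 variable genes without the 10 genes described, 50 principal components, resolution 0.1, then 0.2 within types).

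A cluster took a type's name with at least 3 of its markers raised (2-fold, in 5% of cells), erythrocytes also needed a median of 30% hemoglobin, and finer clusters mixing types were left out. This rule was written after clusters had been seen. The comparison planned for epithelial cells was run on the mesothelial-like cluster. Doublets were not removed. Leaving out the top 5% of Scrublet scores (scanpy 1.11.5) was an alternative.

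UMIs were summed per library and type, without hemoglobin genes, and tested with edgeR 4.0.16 (filterByExpr, TMM, quasi-likelihood, Benjamini-Hochberg over all genes tested, threshold 0.05). SE is that of the log2 fold change. DESeq2 1.42.0, other filters, scalings and cluster settings, and leaving out each library were alternatives. On simulated data with 100 genes changed 4-fold, 70% were called in macrophages (14184 genes) and 41% in granulocytes (12169 genes), and 25% and 2% at 2-fold. The 10 genes, the wider list and the tests were chosen with earlier results of these data known. All 10 genes are named, and of the wider list at most the 5 largest changes that passed in a type. Coordinates are GENCODE vM21 (GRCm38), promoters RefSeq GRCm38.p6.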

Additional observations from a re-analysis of the deposited data

Results flagged for a closer look

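The change between the siFXR1-LNA and siCont libraries differed between macrophages and another cell type for these genes, by the edgeR interaction test over all genes (adjusted p under 0.05). Values are the log2 change in macrophages minus that in the other type. For Mt2 the difference was 2.34 against granulocytes, 3.85 against mesothelial-like cells, 2.70 against B cells, 2.75 against T cells and 2.22 against DCs, all toward a larger change in macrophages. For Mt1 it was 1.36 against granulocytes, 2.27 against mesothelial-like cells and 1.70 against DCs. Fth1 differed by 0.95 against DCs (adjusted p = 0.0286, edgeR).

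Trf differed the other way, by -1.98 against granulocytes, -2.72 against B cells, -2.57 against T cells and -1.79 against DCs, since its log2 change was -0.12 in macrophages and 1.86, 2.55, 2.36 and 1.72 in those types. Slc40a1 differed by -2.43 against B cells and -2.97 against DCs, with few UMIs in each. Against DCs, Slc11a1 differed by -1.57, Hmox1 by -1.52 and Tfrc by -1.72, with adjusted p from 0.00158 to 0.00424 in edgeR. The part of free RNA in these differences was not tested. No group was large enough for a search for single outlying libraries.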

How the results depend on the processing

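Of 899 values of a gene's log2 fold change under the settings listed in the methods, 738 kept direction and side of the threshold, 39 lost the call, 113 gained it and 9 reversed, none of them called. Leaving out 1 library leaves its group with 1. The number of the 10 genes called then changed in every type, as did that over all genes, so these counts are not given here. In macrophages (4 genes called) keeping the 10 genes among the variable genes gave 3, beside 1006 of 13948 genes higher. Scaling without TMM also gave 3. M2 alone and M3 alone (added after seeing the data) gave 0, as did naming cells from their own markers, where 1 of 15614 genes passed. Naming cells that way also left 0 of 6 genes highest in macrophages of the siFXR1-LNA libraries. Granulocytes (5 called) gave 2 in G2 alone (added), beside 12 of 6767 genes higher. Mesothelial-like cells (4) gave 7 without the filter on low counts and 8 with own-marker naming, the latter beside 357 of 12444 genes higher. B cells (0) gave 9 with DESeq2, 10 without the filter and 1 without cells over 10% hemoglobin, the last beside 56 of 11635 genes higher. T cells (0) gave 5 with DESeq2, 7 without the filter and 1 with own-marker naming, the last beside 27 of 9826 genes higher. DCs (9) gave 5 without the top Scrublet scores and 5 with the 10 genes kept among the variable genes.

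With the replicate block 6 genes passed in macrophages, 7 in granulocytes, 6 in mesothelial-like cells, 9 in B cells, 5 in T cells and 10 in DCs. More genes of any kind were called higher with it too, 1860, 586, 599, 491, 163 and 522 in the same order. Without it these were 1270, 93, 384, 16, 27 and 251. Without the filter on low counts, 793 of 21585 genes were higher in mesothelial-like cells and 673 of 20321 in B cells. In T cells 471 of 19973 were higher. In DCs 129 of 11307 were higher without the top Scrublet scores and 147 of 11363 with the 10 genes kept among the variable genes. Same-numbered libraries share only a number, and their deviations correlated by 0.0130 to 0.366.

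Of the 10 genes, those whose change differed from that in macrophages numbered 3 for granulocytes, 2 for mesothelial-like cells and 3 for B cells. They numbered 2 for T cells and 8 for DCs. Without TMM there was 1 for mesothelial-like cells, where 29 of 15922 genes differed. Leaving out 1 library changed these counts and those over all genes, so they are not given. Macrophage shares without overlap (5) cannot be checked by leaving out a library, since 1 library against 2 fails to overlap more readily for any gene. In macrophages Slc40a1 (-0.37) reversed to 0.31 with own-marker naming and 1.63 in M3, Slc11a1 (0.17) to -0.076 without TMM, -0.055 with own-marker naming and -0.091 in M2, and Trf (-0.12) to 0.55 with own-marker naming, 0.57 in M2 and 1.31 in M3. Slc11a1 in granulocytes reversed to -0.23 in G2. Without each library Slc40a1 ran from -0.91 to 0.62, Tfrc from -0.045 to 3.01, Slc11a1 from -0.059 to 0.37 and Trf from -0.42 to 0.30. The causes were not tested. M2, M3 and G2 also held fewer cells than their whole classes.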

Other observations

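The genes with levels most like those of each of the 10 were found over 43 points, each a cell type in a library with at least 50 cells, among 11460 genes. The measure was Pearson's r of log2(level + 1), a description over points that share libraries and depth. Mt1 and Mt2 were each other's closest gene (r = 0.944), followed by Saa3, an acute phase protein (0.916 with Mt1 and 0.937 with Mt2), and by Ctsl. Hmox1 was closest to Marco, a scavenger receptor (0.925), Arg1 (0.924) and Fth1 (0.858). Fth1 was closest to Prdx5 (0.908), Sod2 and Gapdh, and Ftl1 to the lysosomal genes Lamp1 (0.879), Ctsb and Atp6v0c. Tfrc was closest to Vegfa (0.924), Trib3 and Ccdc47, and Slc11a1 to C5ar1 (0.878), Cd14 and Atp6v0c. Trf was closest to Ctsl (0.914), Nupr1 and C3, Cp to Abi1 (0.913), Fam234a and Scd2, and Slc40a1 to Gpat3 (0.871), A530013C23Rik and Per2.

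Every library held 76 to 226 mast cells. They had Tfrc at 30.5, 14.1, 540 and 143 CPM and Trf at 416, 325, 1645 and 1303 CPM. Both genes were higher in both siFXR1-LNA libraries, and Tfrc rested on 3 and 1 UMIs in siCont. T cells were higher there too, with Tfrc at 35.7, 18.2, 387 and 124 CPM and Trf at 358, 140, 1175 and 1254 CPM. In erythrocytes of the siCont libraries, 22106 and 15768 cells, Ftl1 stood at 903 and 1229 CPM and Fth1 at 7772 and 6111 CPM outside hemoglobin.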
